A study of Mus musculus with 12 samples.

Results

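Coinhibitory receptors dampen T cell responses after activation, and the adenosine pathway does so from outside the cell. The genes described are 4 such receptors (Havcr2, Lag3, Tigit and Cd160), the ectoenzymes Entpd1 and Nt5e, the adenosine receptor Adora2a and the nuclear factor Tox. They were chosen by name, and every probe set that the array's probe annotation lists for one of them alone was read on all 12 arrays. That gave 15 probe sets for 6 of the 8 genes, of 45101 probe sets for 18193 named genes in all. Tigit and Adora2a are not analysed here.

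The arrays measured CD4+ T cells of female mice, 3 arrays in each of 4 groups, in a series on Th17 cells, and all mice were BALB/c or on that background. SKG mice, which have a point mutation in Zap70, a kinase that acts directly after the T cell receptor, and BALB/c mice were 40 weeks old, and their cells were stimulated with PMA and ionomycin, which bypass the T cell receptor. Their cells came from lymph node and lacked FR4, a surface protein of regulatory T cells encoded by Izumo1r, except that BALB replicate 1 carries a label of spleen and lymph node CD4+ cells with no FR4 sort. The other groups were spleen cells of hosts 7 days after transfer, with an age label of 7 weeks and no stimulation named: IFN-γ knockout CD4+ cells in RAG2 knockout hosts, and IL-6 knockout CD4+ cells in IL-6 and RAG2 double knockout hosts. RAG2-deficient hosts have no T or B cells of their own but keep their myeloid and NK cells. Donor and host genotype changed at the same time between the transfers, and cells of wild-type donors were not among the arrays. The SKG and BALB cells differ from the transferred cells in age, stimulation, organ and transfer at once, so levels across these pairs are described and not tested.

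Havcr2 encodes TIM-3, a receptor for galectin-9 and other ligands on effector T cells. Lag3 encodes a relative of CD4 that binds class II molecules, and Cd160 encodes a lipid-anchored receptor that binds the herpesvirus entry mediator. Entpd1 encodes CD39, which cuts extracellular ATP and ADP to AMP, and Nt5e encodes CD73, which turns AMP into adenosine. Tox encodes a DNA-binding protein of the HMG-box class that is known for its role in thymic CD4 lineage development and in exhausted T cells. CD39 and CD73 are known from regulatory T cells, and CD73 together with FR4 marks anergic CD4+ cells.

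The promoter windows of the 4 genes that rose in SKG cells are shown, since these genes moved in the same direction. The motifs of AP-1 and NFAT are marked because PMA and ionomycin, given to SKG and BALB cells alike, activate these factors. Each is the 250 bases before a RefSeq transcription start (GRCm38.p6), 5′ to 3′ on the gene's strand. Capitals mark matches on either strand to the AP-1 motif TGANTCA or the NFAT core GGAAA.
Havcr2, chr11:46454681-46454930, plus strand: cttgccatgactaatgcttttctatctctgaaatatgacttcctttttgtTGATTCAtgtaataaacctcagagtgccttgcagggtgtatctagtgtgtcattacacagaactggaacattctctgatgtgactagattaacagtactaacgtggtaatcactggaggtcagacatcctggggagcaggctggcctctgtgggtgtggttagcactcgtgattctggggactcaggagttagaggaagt
Cd160, the second of its starts, chr3:96814522-96814771, minus strand: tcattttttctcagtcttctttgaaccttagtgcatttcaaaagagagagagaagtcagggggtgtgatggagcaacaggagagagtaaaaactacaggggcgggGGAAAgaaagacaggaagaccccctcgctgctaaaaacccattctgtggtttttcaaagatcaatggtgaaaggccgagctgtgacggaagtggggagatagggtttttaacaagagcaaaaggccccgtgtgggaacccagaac
Entpd1, the second of its starts, chr19:40659520-40659769, plus strand: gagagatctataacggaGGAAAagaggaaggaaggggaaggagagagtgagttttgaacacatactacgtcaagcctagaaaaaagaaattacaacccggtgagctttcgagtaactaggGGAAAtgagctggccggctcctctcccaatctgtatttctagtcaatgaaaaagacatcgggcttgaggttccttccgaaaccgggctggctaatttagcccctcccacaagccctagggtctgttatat
Nt5e, chr9:88327359-88327608, plus strand: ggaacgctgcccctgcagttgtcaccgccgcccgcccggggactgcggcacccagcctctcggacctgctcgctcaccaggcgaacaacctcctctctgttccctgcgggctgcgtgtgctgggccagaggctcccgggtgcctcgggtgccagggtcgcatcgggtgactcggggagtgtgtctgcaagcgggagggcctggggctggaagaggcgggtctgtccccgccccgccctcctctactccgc
Havcr2 held 1 AP-1 match, 200 bases before the start, and no NFAT core. Of 32851 promoter windows of this length 6.75% held the AP-1 motif and 55.6% the NFAT core. The Cd160 window shown held 1 NFAT core and 1 match to the STAT motif TTCNNNGAA (7.02% of windows), and the Entpd1 window shown held 2 NFAT cores. The other start of Cd160, that of Entpd1, and the GC-rich Nt5e window (72% G or C) held neither capitalised motif. The T-box letters AGGTGT, the RUNX motif TGTGGT, the ROR letters AGGTCA and the CRE letters TGACG were searched too, and 11.8%, 14%, 14% and 17.8% of windows held them. Of the windows shown, that of Havcr2 held a RUNX and a ROR match, that of Cd160 a RUNX and a CRE match, that of Entpd1 a CRE match and that of Nt5e none. Sequences of 5 of the 8 genes were matched, and a match is a description of letters only.

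Of the 6 genes, 4 were higher in SKG than in BALB cells and 0 were lower. Across all 12076 genes tested 15.7% were higher and 11.8% lower at the same threshold, a limma adjusted p under 0.05. The 4 were Havcr2, Cd160, Entpd1 and Nt5e, and in each of them every SKG array lay above every BALB array, as for 24.9% of all genes, while none of the 6 had every SKG array below, as 18.4% did. With the replicate number as a block the same 4 genes passed, where 19.9% of all genes were higher and 14.6% lower. Nt5e reached the floor for testing through its SKG arrays alone, and without it 3 of 5 genes were higher. All 6 genes had a positive sign, with a median log2 fold change of 1.02 against 0.057 over all genes. Fold changes are on the log2(intensity + 16) scale, which understates changes of dim genes, after quantile normalization of the 6 arrays of a comparison, and a gene is represented by its brightest probe set. In bulk RNA, more cells that express a gene and more RNA per cell cannot be told apart.

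**Figure D1:**
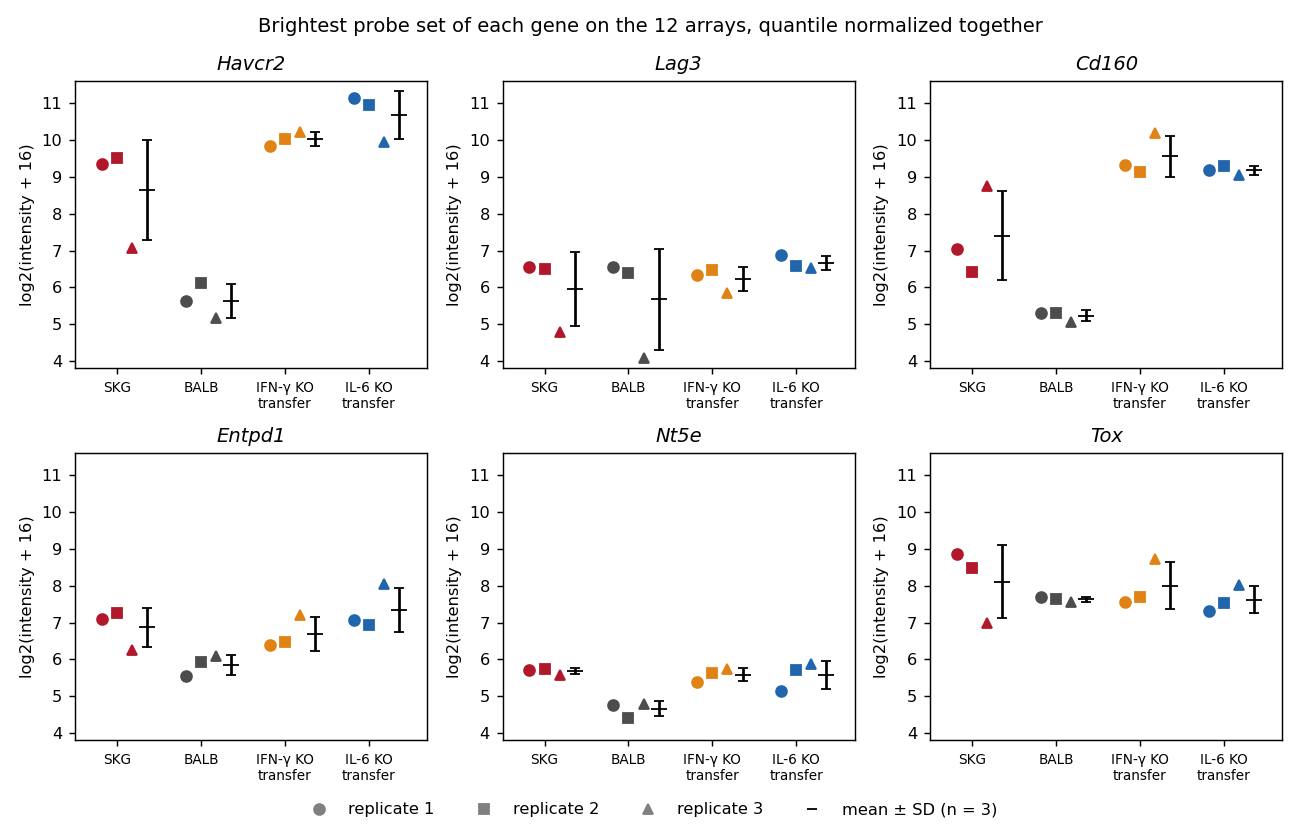
Level of each gene's brightest probe set on the 12 arrays, as log2(intensity + 16) after quantile normalization of all arrays together (vertical axis), in the 4 groups (horizontal axis). Symbols mark the replicate number, and black bars give the mean and SD of 3 arrays. SKG replicate 3 is the lowest SKG array for Havcr2, Lag3, Entpd1, Nt5e and Tox and the highest for Cd160.

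Havcr2 showed the widest difference between SKG and BALB cells among the 6 genes. SKG replicates 1, 2 and 3 had deposited intensities of 552.7, 638.9 and 137.1, and BALB replicates 1, 2 and 3 had 28.5, 45.9 and 28.4. Every SKG array lay above every BALB array, and SKG replicate 3 stood well below the other SKG arrays. On the log2 scale the level was 8.66 ± 1.37 in SKG and 5.64 ± 0.47 in BALB cells (SD, n = 3 each), a rise of 3.02 ± 0.58 (SE, limma adjusted p = 0.0055), or 8.11-fold on this scale. The rise was 3.79 without SKG replicate 3 and 2.60 without SKG replicate 2, and it passed without each array in turn (adjusted p from 3.9e-05 to 0.028).

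Cd160 also rose, in a different order of the SKG arrays. By its brightest probe set the SKG arrays, by replicate number, had 100.3, 67.2 and 481.9, and the BALB arrays had 19.8, 19.7 and 25.1. SKG replicate 3, the lowest SKG array for Havcr2, was the highest for Cd160. The log2 level was 7.41 ± 1.20 in SKG and 5.24 ± 0.15 in BALB cells (SD, n = 3 each), a rise of 2.17 ± 0.49 (SE, limma adjusted p = 0.012). Without SKG replicate 3 the rise was 1.48, and it passed without each array in turn (adjusted p from 0.0025 to 0.037). The suffix of this probe set, 1420066_s_at, marks probes that can match more than 1 transcript, although the annotation lists Cd160 alone. The next brightest Cd160 probe set, 1420396_at, gave 1.05 ± 0.41 and did not pass (adjusted p = 0.087 over all probe sets), with intensities of 45.9, 48.8 and 196.1 in SKG against 22.9, 16.6 and 57.4 in BALB cells. Both probe sets had their highest SKG value on replicate 3. With the median of the probe sets the value was 1.16 and still passed (adjusted p = 0.019).

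Lag3, the remaining receptor, did not differ in a way that these arrays could show. Its deposited intensities, by replicate number, were 67.4, 72.9 and 13.9 on the SKG arrays and 70.9, 59.8 and 1.6 on the BALB arrays. Replicate 3 was the lowest array of both groups, and replicates 1 and 2 of both groups lay close together. The log2 fold change was 0.28 ± 0.68 (SE, limma adjusted p = 0.81), with a 95% interval from -1.26 to 1.82. Without BALB replicate 3 the sign turned, to -0.52, and with replicates 1 and 2 only it was 0.059.

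The ectoenzymes rose by similar amounts at low levels. Entpd1 read 103.0, 131.7 and 69.7 on the SKG arrays, by replicate number, and 26.3, 38.5 and 67.3 on the BALB arrays, so that the lowest SKG array lay just above the highest BALB array. The log2 level was 6.88 ± 0.53 in SKG and 5.86 ± 0.27 in BALB cells (SD, n = 3 each), a rise of 1.02 ± 0.28 (SE, limma adjusted p = 0.025). Leaving out BALB replicate 1, the array with no FR4 sort, ended the call (0.86, adjusted p = 0.094). So did leaving out BALB replicate 2 (1.05, 0.057), SKG replicate 1 (0.92, 0.096) or SKG replicate 2 (0.82, 0.096). The value also failed when low values were not filtered (adjusted p = 0.060), when the arrays were not normalized (0.054) and when the probe sets were summarised by their median (0.60 on the log2 scale, 0.058). The other Entpd1 probe sets gave 0.74 ± 0.27 and 0.68 ± 0.40 and did not pass.

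Nt5e read 32.1, 37.2 and 35.8 on the SKG arrays, by replicate number, and 9.0, 4.2 and 17.7 on the BALB arrays. The SKG arrays lay close together, and all were above the BALB arrays. The log2 level was 5.69 ± 0.09 in SKG and 4.67 ± 0.21 in BALB cells (SD, n = 3 each), a rise of 1.02 ± 0.21 (SE, limma adjusted p = 0.0079). It passed without each array in turn (adjusted p from 0.011 to 0.038). The BALB mean lay below the floor for testing, the 40th percentile of all probe sets (4.75), so the mean of the 6 arrays reached it through the SKG arrays. The Nt5e calls are therefore given as a description and not as support. With no filter on low values Nt5e also passed (adjusted p = 0.015). Its other probe sets had opposite signs. The tested one, 1459023_at, gave -0.15 ± 0.34 (SE, adjusted p = 0.81 over all probe sets), and 1422974_at, below the floor and not tested, gave 0.60 ± 0.16.

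Tox read 389.5, 313.1 and 127.9 on the SKG arrays, by replicate number, and 173.8, 163.5 and 209.1 on the BALB arrays. SKG replicates 1 and 2 lay above all BALB arrays and SKG replicate 3 below them. The log2 fold change was 0.48 ± 0.41 (SE, limma adjusted p = 0.43), with a 95% interval from -0.44 to 1.41. Without SKG replicate 3 it was 1.04 and passed (adjusted p = 0.0029), as did the value of 1.01 with replicates 1 and 2 only (0.00051). The other Tox probe sets gave 0.59 ± 0.28 and 0.66 ± 0.26 and did not pass (adjusted p = 0.14 and 0.087 over all probe sets). Tox2, the paralog that is best known from follicular helper cells and was chosen here after its value was seen, rose by 1.96 ± 0.40 (SE, limma adjusted p = 0.0073). Tox4, another paralog named after its value was seen, went the other way, at -0.58 ± 0.13 (SE, limma adjusted p = 0.011).

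**Figure D2:**
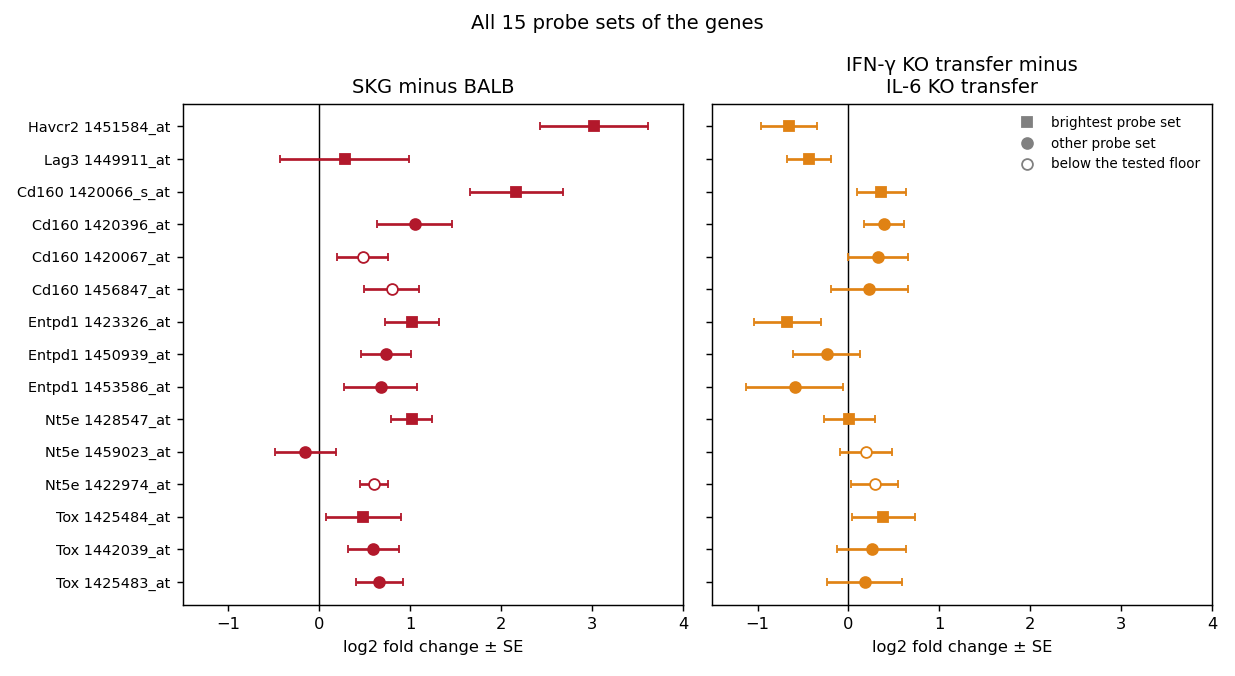
Log2 fold change with its SE (horizontal axes) of all 15 probe sets of the 6 genes (rows) in both comparisons. Squares mark the brightest probe set of a gene, and open symbols lie below the tested floor. In SKG minus BALB 14 of 15 values are positive. Of the 12 probe sets tested there, 4 pass, the brightest of Havcr2, Cd160, Entpd1 and Nt5e. Over all 27022 probe sets tested, 10.3% were higher and 9.88% lower, with a median of -0.0039. Probe sets of the same gene are not separate evidence. Nt5e reached the floor through its SKG arrays alone.

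Some markers of other cells and 1 of the 2 array quality ratios moved with the SKG and BALB labels. Beside the marker counts below stand the 15.7% of all genes that rose in SKG cells and the 11.8% that fell. The actin 3′/5′ signal ratio was 1.93 to 2.63 in SKG and 2.95 to 3.98 in BALB arrays, while the Gapdh 3′/5′ ratio overlapped, at 2.57 to 3.03 in SKG and 2.86 to 3.28 in BALB arrays. Of 9 tested T cell markers 1 rose (Thy1) and 2 fell (Cd5 and Lat), and the log2 level of Cd4 was 6.90 ± 0.30 in SKG and 6.68 ± 0.09 in BALB cells (SD, n = 3 each). Of 9 tested regulatory T cell markers 7 rose, among them Foxp3 by 1.74 ± 0.21 and Izumo1r, the FR4 gene, by 0.84 ± 0.18 (SE, limma adjusted p = 0.00077 and 0.0093), and the other risers were Il2ra, Ikzf2, Ctla4, Nrp1 and Capg. The summed normalized intensity of that list was 10865 to 21378 in SKG and 5070 to 6966 in BALB arrays. On average Ctla4 made up 6985 in SKG and 1163 in BALB, Ikzf2 4031 and 549, Il2ra 3338 and 1653, and Foxp3 289 and 72.2. Gpr83 and Tnfrsf18 went the other way, at -0.97 ± 0.33 and -0.48 ± 0.17, and did not pass (SE, limma adjusted p = 0.056 and 0.065). NK cells express Cd160 and Havcr2 as well. Of 4 tested NK markers 2 rose, Prf1 and Klrd1. The others did not pass, with log2 fold changes of -0.84 ± 0.28 for Fcer1g and 0.10 ± 0.30 for Tyrobp (SE, limma adjusted p = 0.0504 and 0.85). The list summed to 341 to 542 in SKG and 180 to 210 in BALB arrays, of which Prf1 made up 309 in SKG and 78.2 in BALB on average, with Ncr1, Klre1 and Klra8 below the floor over the 12 arrays. Of the 6 tested B cell markers Ighm rose, with sums of 2925 to 6829 in SKG and 711 to 2486 in BALB arrays and with Cd79a, Cd79b and Pax5 below the floor. Ighm alone made up 4745 in SKG and 1321 in BALB on average, and the other tested B cell markers did not pass. Of 4 plasma cell markers Derl3 rose, while Sdc1 was at -0.64 ± 0.25 and did not pass (SE, limma adjusted p = 0.085). Of 4 dendritic cell markers Zbtb46 rose, while Itgax at 0.12, Xcr1 at -0.10 and Siglech at -0.15 did not pass (limma adjusted p = 0.76, 0.77 and 0.82). The sums of that list overlapped, at 64.2 to 113 in SKG and 56.1 to 95.8 in BALB arrays. The 2 CD8 T cell markers had opposite signs, Cd8b1 at -2.49 ± 0.43 and Cd8a at 0.81 ± 0.29 (SE, limma adjusted p = 0.0036 and 0.072). Hemgn fell among 3 erythroid markers, with Alas2 and Klf1 at 0.13 and 0.11 and not passing. Of 7 macrophage and monocyte markers 0 passed (1 at an unadjusted p under 0.05), with sums of 414 to 1304 in SKG and 419 to 1053 in BALB arrays and with C1qa and C1qb below the floor. Mpeg1 made up 600 in SKG and 595 in BALB on average. Zap70 itself was 0.60 ± 0.14 lower in SKG cells (SE, limma adjusted p = 0.014). With the replicate block Cd3g was also higher, Gpr83, Tnfrsf18 and Cd68 were also lower, and Zbtb46 no longer passed (limma adjusted p = 0.00057, 0.025, 0.0085, 0.025 and 0.055). The part of these differences in the rises above was not tested.

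Between the transfers none of the 6 genes passed. At the same threshold 0.0653% of 12260 genes were higher in cells of IFN-γ-deficient donors and 0.0489% were lower, and 0 of the 6 genes had an unadjusted p under 0.05 by limma, against 4.34% of all genes. With the replicate number as a block 0 of 6 passed too, while 0.775% of all genes were higher and 1.01% lower. In that fit 4 of the 6 had an unadjusted p under 0.05, as did 14.4% of all genes. For 0 of the 6 genes did every IFN-γ-deficient array lie above the other group, as 5.41% of all genes did. The median of the 6 genes was -0.21 on the log2 scale, against 0.0038 over all genes, and 3 of 6 values were positive. In the labels' check, Ifng was 9.41 ± 0.47 in the IFN-γ-deficient transfer and 13.56 ± 0.02 in the transfer labelled IL-6-deficient (SD, n = 3 each). Il6 was 5.38 ± 1.27 in the IFN-γ-deficient transfer and 6.51 ± 1.33 in the transfer labelled IL-6-deficient (SD, n = 3 each, limma adjusted p = 1.0), so its mean was not the lower one in the arrays labelled as lacking it. With the replicate block the Il6 difference of -1.14 passed (adjusted p = 0.015). Of the cell type markers 0 passed between the transfers without the block. With it 2 of 9 regulatory T cell markers were higher in the IFN-γ-deficient transfer and 0 lower. These were Capg by 0.57 and Gpr83 by 0.88 (limma adjusted p = 0.0070 and 0.023). Of 4 plasma cell markers Derl3 was higher too, by 0.98, and of 9 T cell markers Cd5, by 0.43 (0.021 and 0.028).

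Havcr2 was bright in both transfers. Its deposited intensity was 871.9, 985.9 and 1043.0 in the IFN-γ-deficient replicates 1 to 3, against 2456.2, 2096.9 and 843.4 in the replicates labelled IL-6-deficient. Among the arrays labelled IL-6-deficient, the deposited values of replicates 1 and 2 lay above the whole IFN-γ-deficient group and that of replicate 3 below it. With all arrays normalized together replicate 3 lay inside that group, at 9.94 against 9.83 to 10.21. The log2 fold change was -0.66 ± 0.31 (SE, limma adjusted p = 1.0). With replicates 1 and 2 only the value was -1.08 and passed (adjusted p = 0.00017), and with only the IL-6-labelled replicate 3 left out the value was -1.01 (0.14). The actin 3′/5′ ratio was 3.81 on replicate 3 of the IFN-γ-deficient transfer and 5.13 on replicate 3 of the other, against 1.60 to 1.67 on the remaining transfer arrays. The Gapdh 3′/5′ ratio was 7.99 and 9.33 on these replicate 3 arrays, against 2.42 to 2.84 on the remaining ones. The summed normalized intensity of 6 neutrophil markers was 81.9 to 370 in the IFN-γ-deficient transfer and 50.7 to 1552 in the transfer labelled IL-6-deficient. The part of these values in the spread of Havcr2 was not tested.

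Cd160 overlapped between the transfers, with deposited intensities of 625.2, 539.7 and 1033.3 in the IFN-γ-deficient replicates against 660.3, 674.5 and 438.6 in those labelled IL-6-deficient. The IFN-γ-deficient replicate 3 was the highest array and the IL-6-labelled replicate 3 the lowest, and the log2 fold change was 0.36 ± 0.28. Lag3 had 64.9, 77.4 and 39.4 in the IFN-γ-deficient replicates against 112.9, 81.6 and 65.1 in the IL-6-labelled ones. After normalization every IFN-γ-deficient array lay below the other group for Lag3, as for 4.53% of all genes, while the deposited values overlapped, and the log2 fold change was -0.43 ± 0.23. Both genes had a limma adjusted p = 1.0.

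Entpd1 had deposited intensities of 67.5, 77.4 and 116.1 in the IFN-γ-deficient replicates, against 133.1, 114.2 and 202.2 in those labelled IL-6-deficient. Replicate 3 was the highest array of each group, and within each number the IFN-γ-deficient array was the lower one. The log2 fold change was -0.67 ± 0.36 (limma adjusted p = 1.0), and the fit with the replicate block gave an adjusted p = 0.056. Nt5e had 25.9, 37.5 and 35.4 in the IFN-γ-deficient replicates against 18.8, 35.4 and 38.5 in the IL-6-labelled ones, a log2 fold change of 0.0093 with a 95% interval from -0.57 to 0.58. Tox had 178.5, 200.5 and 356.9 in the IFN-γ-deficient replicates against 163.6, 184.0 and 199.8 in the IL-6-labelled ones, a log2 fold change of 0.38 ± 0.35. On this brightest Tox probe set both transfers had their highest value on replicate 3, whereas in SKG cells replicate 3 was the lowest. On the Tox probe set 1425483_at replicate 3 had the lowest deposited value of both transfers. The values by replicate number were 57.7, 70.4 and 53.6 in the IFN-γ-deficient and 77.8, 89.4 and 17.6 in the IL-6-labelled arrays.

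**Figure D3:**
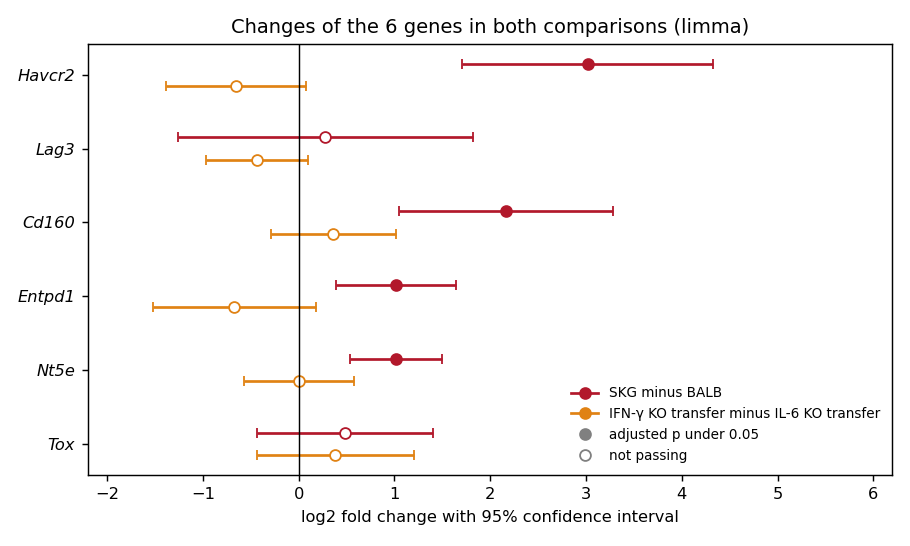
Log2 fold change of the 6 genes (rows) in SKG minus BALB (red) and in the IFN-γ-deficient transfer minus the transfer labelled IL-6-deficient (orange), with 95% confidence intervals from limma. Filled points pass an adjusted p under 0.05. The 4 filled points all belong to SKG minus BALB, from 1.02 for Entpd1 and Nt5e to 3.02 for Havcr2. Nt5e reached the floor for testing through its SKG arrays alone.

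The change of Havcr2 differed between the comparisons, by 3.68 ± 0.76 (SE, limma interaction over 12 arrays, adjusted p = 0.012), the 1 gene of the 6 that passed where 8.24% of 12176 genes did. For the rest the difference was 1.81 for Cd160 (adjusted p = 0.11), 1.68 for Entpd1 (0.052), 1.01 for Nt5e (0.067), 0.71 for Lag3 (0.67) and 0.094 for Tox (0.95). With the replicate block Cd160, Entpd1 and Nt5e passed as well (adjusted p = 0.035, 0.0036 and 0.026), where 25.6% of all genes did.

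Across the 4 groups, normalized together, BALB cells held the least Havcr2, Cd160, Entpd1 and Nt5e. The BALB mean was the lowest for Lag3 too, with replicate 3 at 4.09 and replicates 1 and 2 at 6.56 and 6.38. The log2 level of Havcr2 was 8.65 ± 1.36 in SKG, 5.63 ± 0.47 in BALB, 10.02 ± 0.19 in the IFN-γ-deficient transfer and 10.68 ± 0.65 in the transfer labelled IL-6-deficient (SD, n = 3 each). The transfers overlapped each other, and neither overlapped SKG or BALB. Cd160 followed the same pattern, at 7.40 ± 1.21 in SKG, 5.23 ± 0.15 in BALB, 9.55 ± 0.56 in the IFN-γ-deficient transfer and 9.18 ± 0.12 in the other.

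Entpd1 was 6.87 ± 0.53 in SKG, 5.85 ± 0.27 in BALB, 6.69 ± 0.45 in the IFN-γ-deficient transfer and 7.35 ± 0.60 in the other (SD, n = 3 each), where neighbours in the order of means overlapped except BALB. Nt5e was 5.68 ± 0.09 in SKG, 4.66 ± 0.21 in BALB, 5.59 ± 0.18 in the IFN-γ-deficient transfer and 5.58 ± 0.39 in the other, and again only BALB stood apart. Lag3 means ran from 5.68 in BALB to 6.65 in the transfer labelled IL-6-deficient, and Tox means from 7.62 in that transfer to 8.11 in SKG, with all neighbours overlapping for Tox. For Lag3 the transfers did not overlap each other, and the other neighbours did.

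The genes whose levels were most like these over the 12 arrays were named by Pearson correlation among 11433 genes tested in both comparisons, as a description. All points share the 4 groups and the replicate 3 arrays. Tmem120a and the lysosomal protease gene Ctsa were closest to Havcr2 (r = 0.98 for both), and Nmt1 and Gng2 to Cd160 (0.99 and 0.98). Pggt1b and Prpf19 were closest to Lag3 (0.95 and 0.93), Dctn4 and Adprm to Entpd1 (0.93 for both), Ddx39a and Dpy19l4 to Nt5e (0.94 for both), and Rnft1 and B3gnt5 to Tox (0.94 and 0.93).

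Among 11 other coinhibitory receptors tested, 5 rose and 1 fell in SKG cells, with a median log2 fold change of 0.78. Over all genes tested 15.7% rose and 11.8% fell in SKG cells. Between the transfers 4.34% of all genes had an unadjusted p under 0.05 by limma. These shares are the background for this list and those that follow. Ctla4, which competes for the ligands of CD28, rose by 2.53 ± 0.41 (SE, limma adjusted p = 0.0026), and Pdcd1, encoding PD-1, by 1.43 ± 0.16 (0.00053). Cd200r1 rose by 0.91 ± 0.17 (0.0053) and Cd96, a relative of Tigit, by 1.22 ± 0.27 (0.0097). Cd5, a negative regulator of T cell receptor signals, fell by 0.97 (0.0054). Between the transfers 0 of 11 passed (1 at an unadjusted p under 0.05), with a median of -0.010. With the replicate block Klrg1 and Cd5 were higher and Cd96 lower in IFN-γ-deficient cells (adjusted p = 0.036, 0.028 and 0.030), and in SKG cells Klrg1 and Vsir were higher too (0.0082 and 0.0049).

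Ligands of these receptors went both ways. Of 11 tested, 4 rose and 4 fell in SKG cells, where 15.7% and 11.8% of all genes did, with a median of 0.38. Lgals3, encoding galectin-3, a ligand of the Lag3 product, rose by 1.68 ± 0.27, Pdcd1lg2 by 1.28 ± 0.17 and Cd86 by 1.23 ± 0.26 (SE, limma adjusted p = 0.0027, 0.0010 and 0.0093), and Cd274, encoding PD-L1, fell by 0.68 (0.0099). Between the transfers 0 of 12 passed (1 at an unadjusted p under 0.05, and Lgals3 higher with the replicate block, adjusted p = 0.012), with a median of 0.051.

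Of 10 costimulatory receptors tested, 4 rose and 1 fell in SKG cells, where 15.7% and 11.8% of all genes did, with a median of 0.47. Crtam rose by 1.73 ± 0.34, Icos by 1.60 ± 0.12 and Tnfrsf4, encoding OX40, by 1.15 ± 0.11 (SE, limma adjusted p = 0.0060, 8.8e-05 and 0.00026), and Cd27 fell by 0.94 (0.0026). With the replicate block Tnfrsf9 was also higher and Tnfrsf18 and Slamf1 also lower (adjusted p = 0.00051, 0.0085 and 0.046). In the transfer comparison 0 of 9 passed, with 0 at an unadjusted p under 0.05 and 0 with the block.

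Other genes of the adenosine pathway mostly did not pass, where 15.7% of all genes were higher and 11.8% lower in SKG cells. Of 7 other ectonucleotidases tested 1 rose in SKG cells, Acpp, whose product removes phosphate from AMP, by 1.84 ± 0.19 (SE, limma adjusted p = 0.00041). Acpp was also the 1 of 8 that was higher in the IFN-γ-deficient transfer, by 1.45 ± 0.17 (0.042), where 0.0653% of all genes were. That count of 1 fell to 0 under 9 of 18 alternatives. The list medians were 0.22 in SKG minus BALB and 0.058 in the transfer comparison. With the replicate block Alpl, a phosphatase, was also higher in SKG cells (adjusted p = 0.047). Of 7 genes of adenosine clearance and uptake 2 fell in SKG cells and 0 rose, with a median of -0.11. These were Ada, which deaminates adenosine to inosine, by 0.99 ± 0.17, and Pnp, which acts on inosine in the next step, by 0.95 ± 0.25 (SE, limma adjusted p = 0.0031 and 0.021), and with the replicate block the transporter gene Slc29a2 was higher (0.022). In the transfer comparison 0 of 7 passed (1 at an unadjusted p under 0.05 and 0 with the block). Of 6 other adenosine and ATP receptors P2ry14 fell by 0.65 ± 0.20 in SKG cells (0.042), the ATP-gated channel gene P2rx4 was higher with the block (0.047), and in the transfer comparison 0 passed (0 at an unadjusted p under 0.05), with P2ry10 higher with the block (0.044).

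Among 17 tested genes of the TOX family and of regulators known from dysfunctional T cells, 6 rose and 7 fell in SKG cells, with a median of 0.51. Of all genes 15.7% rose and 11.8% fell. Ikzf2, encoding Helios, rose by 2.76 ± 0.31 (SE), while Nr4a1, an early target of T cell receptor signals, fell by 1.18, Tbx21, encoding T-bet, fell by 1.07 and Id3 fell by 2.04 (limma adjusted p from 0.00012 to 0.00066). With the block Eomes and Nfatc2 were higher as well (adjusted p = 0.028 and 0.023). In the transfer comparison 0 of 17 passed (2 at an unadjusted p under 0.05), with a median of 0.033, and with the block Nr4a1 and Nr4a2 were lower in IFN-γ-deficient cells (0.023 and 0.024).

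**Figure D4:**
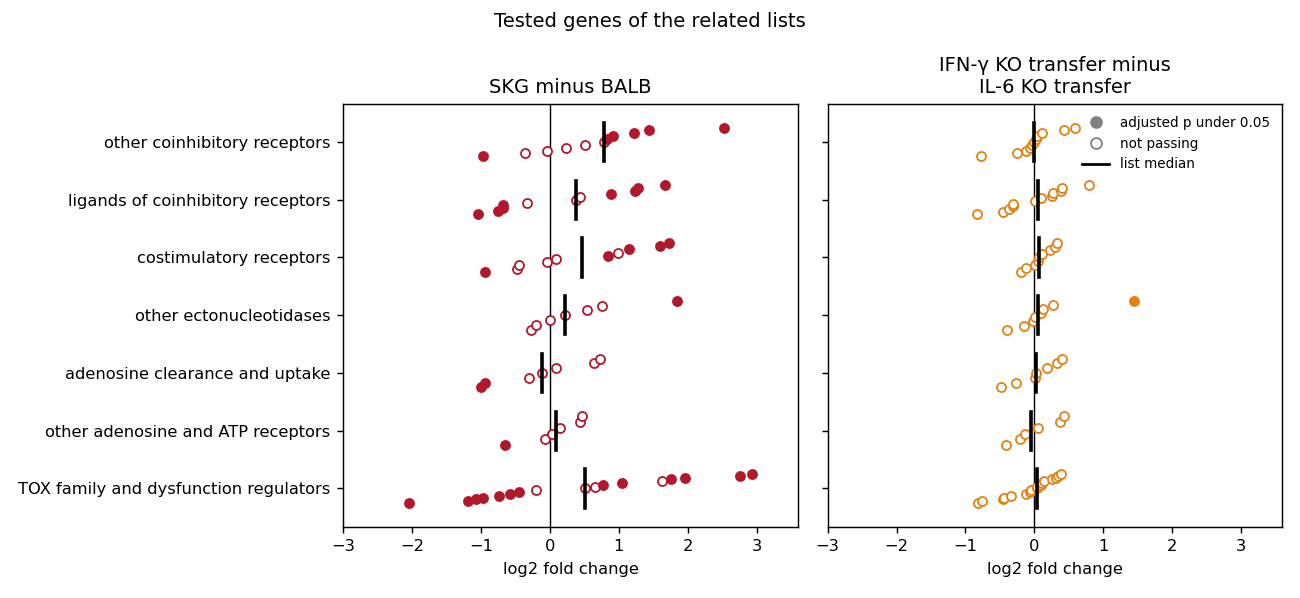
Log2 fold change (horizontal axes) of every tested gene of the related lists (rows) in SKG minus BALB and in the IFN-γ-deficient transfer minus the transfer labelled IL-6-deficient. Filled points pass a limma adjusted p under 0.05, and black lines give list medians. In the transfer comparison the 1 filled point is Acpp at 1.45, and its list held 0 such genes under 9 of 18 alternatives.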

How the data were processed

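Expression was measured on 12 Affymetrix mouse arrays from RNeasy RNA labelled with biotin by in vitro transcription, per the labels' protocols. Each deposited value is a linear intensity of 1 probe set on 1 array. The software and the normalization behind it: not given in the sources used here. Array medians ran from 15.7 to 27.7, a ratio of 1.76, so arrays were quantile normalized, per comparison for tests and together for levels, without 64 control probe sets, as log2(intensity + 16). The annotation listed 1 gene for 34958 probe sets, and symbols were updated by gene ID to GRCm38.p6. Genes whose mean over a comparison's 6 arrays lay under the 40th percentile over probe sets were not tested. Fits used limma 3.58.1 in R 4.3.3 with an intensity trend, two-sided, adjusted by Benjamini-Hochberg over all genes tested, and were tested on simulated data.

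Replicate numbers are shared by the labels. For numbers 1 to 3, deviations from the group means correlated at 0.13, 0.20 and 0.33 in the SKG comparison and at 0.46, 0.45 and 0.70 in the transfer comparison. Replicates 1 and 2 with crossed numbers gave 0.17 and 0.17, and 0.44 and 0.41, so that replicate 3 stood apart more than numbers 1 and 2 matched. All same-numbered pairs were above 0.1, so block values are given where they change a call. Nothing says that replicates were separate animals, so p-values measure spread between arrays, whose number limits precision.

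The genes and lists were chosen with earlier results of these data known. Beside all 8 genes, the text names passing members of each list, up to 4 with the smallest p, those whose call differs with the block, passing markers, and the 2 genes most correlated with each. Alternatives were other constants (1 and 64), filters, normalizations, probe set summaries and fits, and leaving out arrays.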

Additional observations from a re-analysis of the deposited data

Results flagged for a closer look

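The following changes differed between SKG minus BALB and the IFN-γ-deficient transfer minus the transfer labelled IL-6-deficient in the limma interaction test over 12 arrays, and each value is the first change less the second on the log2 scale. Havcr2 had a difference of 3.68 (adjusted p = 0.012).

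Of the other receptors, Ctla4 had a difference of 2.41, Cd96 2.01, Pdcd1 1.53, Cd200r1 0.90 and Cd5 -1.40 (adjusted p from 0.0082 to 0.041). Of the costimulatory receptors, Icos had 1.52, Tnfrsf4 1.09 and Cd27 -1.23 (adjusted p from 0.00033 to 0.014). Of the ligands, Cd86 had 2.08 and Pdcd1lg2 1.66 (adjusted p = 0.020 and 0.013). Ikzf2 had 2.47 and Id3 -2.00 (0.0025 and 0.017). Of the cell type markers, Nrp1 had 2.32, Foxp3 1.54, Thy1 1.38 and Cd8b1 -2.66 (adjusted p from 0.0025 to 0.022). Ifng, deleted in 1 transfer's donors per the labels, had 4.93 (7.9e-06). The same test also passed for Maf at 2.55, Prdm1 at 1.59, Cd226 at 1.24 and Fcer1g at -1.503 (adjusted p from 0.011 to 0.043), members of the lists that the rule for named genes did not take and that are named after their values were seen. The background for all of these is the 8.24% of 12176 genes that passed this test. Groups of 3 arrays were too small to look for single arrays far from the rest.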

How the results depend on the processing

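The calls of Havcr2 and Cd160 in SKG cells held under all 18 alternatives, from 2.24 to 3.79 and from 1.16 to 2.74 on the log2 scale, and that of Nt5e under the 16 in which it was tested. Nt5e was under the floor with the 60th percentile filter and with the median of probe sets. With that filter 3 genes were higher, where 21.8% of all genes were, and with the median 2 genes instead of 4, where 13.5% were. Entpd1 lost its call under 7 of 18. Leaving out each array gave 3 to 5 genes higher, where from 9.25% (without SKG replicate 1) to 18.2% (without SKG replicate 3) of all genes were. In the transfer comparison 1 gene was lower with replicates 1 and 2 only, where 1.94% of all genes were. The difference between the comparisons passed for 2 genes with log2(intensity + 1) and with the 60th percentile filter, for 4 with the replicate block and for 4 with replicates 1 and 2 only, and for 1 to 2 without each array in turn. For this test the share of all genes is known only for the main fit (8.24%) and the block (25.6%). The other counts have no such background and are not read further. Signs that turned belonged to values that did not pass. They were Nt5e in the transfer comparison at -0.00207 with log2(intensity + 64), Cd160 there at -0.013 with replicates 1 and 2 only, and the difference for Nt5e at -0.093 with the median of probe sets. Without each array in turn Lag3 in SKG cells ran from -0.52 to 0.85, Nt5e in the transfer comparison from -0.20 to 0.16, and the difference from -0.083 to 1.28 for Lag3 and from -0.29 to 0.65 for Tox. The cause was not tested.

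Over all genes 1901 were higher and 1420 lower in SKG cells, against 1130 and 830 without normalization, 2866 and 2204 with replicates 1 and 2 only, 1114 and 886 without SKG replicate 1, 1157 and 905 without SKG replicate 2, and 1256 and 874 without BALB replicate 1. Over all probe sets 2671 were lower. In the transfer comparison 8 were higher and 6 lower, against 95 and 124 with the replicate block, 262 and 239 with replicates 1 and 2 only and 22 and 9 with all 12 arrays in one fit. They were 5 higher with no filter, 4 with the median of probe sets, and from 1 to 16 higher and 1 to 10 lower without each array in turn. The block changed no call of the 6 genes within either comparison.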
